A study of Mus musculus with 9 samples.

Results

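The 10 effector cytokine and chemokine genes of T cells described here were followed across regulatory T cells of 3 genotypes: Ifng, Il4, Il13, Csf2, Il2, Il10, Tnf and Lta, which encode cytokines, and Xcl1 and Ccl5, which encode chemokines. They were chosen by name, as the 10 listed genes with all their probe sets among 12393 genes with a symbol of their own on the array. The choice was made with earlier results of these data known. Each had 1 probe set, so each level rests on a single measurement per array. Of the 10, 9 were bright enough to be tested, among 7436 tested genes, and Il13 was not.

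RNA was measured on 9 Affymetrix arrays, 3 per group, from mouse cells of the C57BL6 strain that carry CD4 and CD25 on their surface and were separated with magnets. The groups were wild type and 2 conditional knockouts of Sirt1, in which the CD4 cre recombinase (CD4-cre) or the Foxp3 cre recombinase (Foxp3-cre) removes part of the gene. SIRT1 is a protein deacetylase that uses NAD, and the title of the series puts the question as what its targeting does to regulatory T cell function. The Cd4 promoter drives recombination in T cells in general, and the Foxp3 promoter in regulatory T cells, so that in the latter group other T cells keep Sirt1. The sources used here give no age, no sex, no account of which part of Sirt1 is deleted and no word on whether animals were pooled. The series text calls the samples independent, but no label states that they came from separate animals, so p-values only measure the spread between these samples, and that spread may be technical.

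Cytokines and chemokines are small proteins that a cell secretes to instruct its neighbours. T helper 1 cells and natural killer (NK) cells are known for interferon gamma, T helper 2 cells for IL-4 and IL-13, and activated conventional T cells for IL-2, GM-CSF and TNF. Regulatory T cells make little of most of these: the transcription factor FOXP3 represses Il2 and other effector cytokine genes there, while IL-10 is a cytokine by which regulatory T cells restrain inflammation.

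All signals stand on the log2 scale, where 1 unit is a doubling. A gene was called changed when limma's p, adjusted by Benjamini and Hochberg over the 7436 tested genes, lay below 0.05; each change is given with its standard error (SE). Wild type replicate 2 stood apart, with a correlation of 0.982 to 0.987 with the other arrays, which reached at least 0.992 among themselves, and a 5′ minus 3′ signal of -1.53 for beta-actin against -0.68 to -0.45, so the calls are also given without it. Of 9 markers of regulatory and CD4 T cells, the 8 other than Foxp3 had a mean signal of 9.65 to 9.83 on the wild type arrays, 9.81 to 9.84 on those of CD4-cre and 9.77 to 9.82 on those of Foxp3-cre. They include Cd3e and Cd4, which all CD4 T cells express, and Ikzf2, which encodes Helios, a factor of regulatory T cells, and was dim in wild type at 5.10, 4.17 and 5.04. The Foxp3 signal was 9.16, 9.68 and 9.34 in wild type and 9.68, 9.69 and 9.62 in CD4-cre, but 2.67, 3.38 and 2.83 in the cells labelled Foxp3-cre. The labels do not say how the Foxp3 cre allele is built, so it is not known whether this probe set can read its RNA, and a low value checks neither the label nor the level of Foxp3 RNA there. The Sirt1 signal was 7.91, 6.77 and 7.90 on the wild type arrays, 7.69, 7.59 and 7.59 on those of CD4-cre and 7.66, 7.54 and 7.47 on those of Foxp3-cre, and since the deleted part is not known, the probe set may lie outside it and check nothing.

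Of the 10 genes, Ifng, Il4 and Xcl1 fell in both knockouts, to between 53.1% and 58.3% of the wild type level in CD4-cre and to between 41.0% and 44.8% in Foxp3-cre, where Csf2 fell as well. In CD4-cre, 3 of the 9 tested genes fell and 0 rose, where 0.430% of all tested genes fell and 0.229% rose. In Foxp3-cre, 4 of the 9 fell and 0 rose, where 1.67% of all tested genes fell and 1.69% rose. The 10 genes were chosen with earlier results of these data known, so these shares describe the set and cannot test whether it stands out. With no filter on dim genes, Ifng, Il4 and Xcl1 were the 3 of 10 that fell in each knockout, where 0.234% and 0.742% of 12393 genes fell in CD4-cre and Foxp3-cre. Ccl5, Tnf, Lta, Il2 and Il10 did not pass the test in either knockout. Over the 9 tested genes the median difference was -0.15 in CD4-cre and -0.52 in Foxp3-cre, beside 0.026 and 0.0061 over all tested genes. Without wild type replicate 2, limma called 3 of the 9 in CD4-cre and 5 in Foxp3-cre (with Tnf added), and over all genes 182 and 568 in place of 49 and 250. Both comparisons use the same 3 wild type arrays. The main fit leaves out a pairing by replicate number that the data showed between wild type and Foxp3-cre. With that number as a block, limma called the same 3 and 4 of the 9. In such bulk samples, fewer cells of a type and less RNA per cell cannot be told apart.

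**Figure D1:**
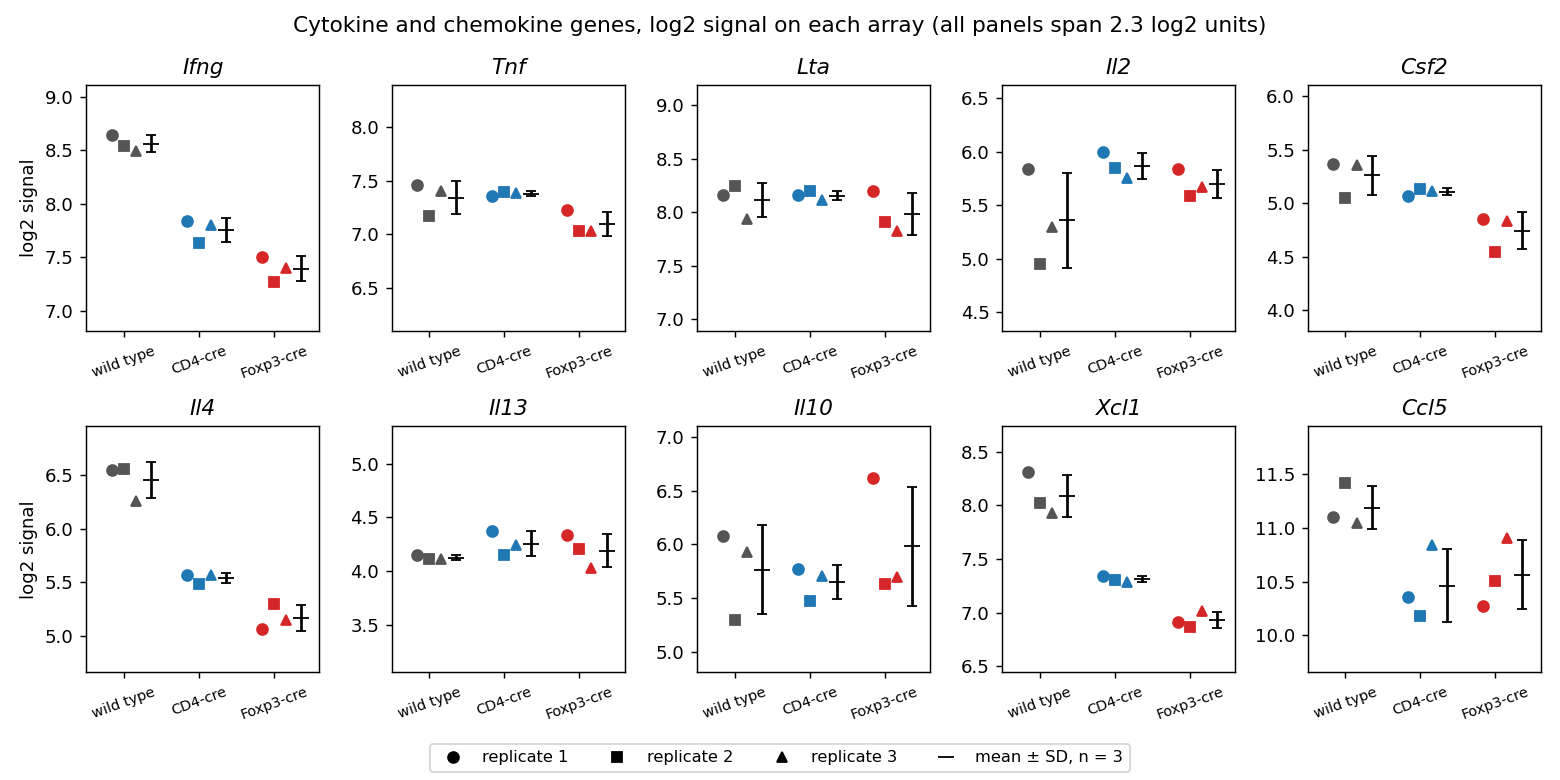
Log2 signal of each of the 10 genes (vertical axis, every panel spanning 2.3 log2 units) in the 3 genotype groups (horizontal axis), with 1 point per array, the shape giving the replicate, and the mean with its SD (n = 3) beside them. Ifng, Il4 and Xcl1 step down from wild type to CD4-cre to Foxp3-cre with no overlap between groups, and Il10, Il13 and Lta overlap in all groups.

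Ifng encodes interferon gamma, the cytokine of T helper 1 cells that activates macrophages. Its log2 signal was 8.65, 8.54 and 8.49 on the wild type arrays, 7.84, 7.63 and 7.80 on those of CD4-cre and 7.51, 7.27 and 7.40 on those of Foxp3-cre. The 3 groups did not overlap, and the lowest wild type array lay 0.65 above the highest CD4-cre array. Ifng fell by 0.80 (SE 0.092, limma adjusted p = 0.00726) in CD4-cre, to 57.3% of the wild type level. In Foxp3-cre it fell by 1.17 (SE 0.092, limma adjusted p = 0.00051), to 44.6%.

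Il4 encodes interleukin 4, which drives T helper 2 cells and the switch of B cells to IgE. The log2 signal of Il4 was 6.55, 6.56 and 6.26 on the wild type arrays, 5.57, 5.49 and 5.57 on those of CD4-cre and 5.06, 5.30 and 5.15 on those of Foxp3-cre. All CD4-cre arrays lay below all wild type arrays and above all Foxp3-cre arrays. Il4 fell by 0.91 (SE 0.10, limma adjusted p = 0.00676) in CD4-cre, to 53.1% of wild type, and by 1.29 (SE 0.10, limma adjusted p = 0.00051) in Foxp3-cre, to 41.0%.

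Xcl1 encodes lymphotactin, a chemokine that attracts the dendritic cells that carry its receptor XCR1. On the log2 scale, Xcl1 read 8.31, 8.03 and 7.93 on the wild type arrays, 7.34, 7.30 and 7.29 on those of CD4-cre and 6.91, 6.87 and 7.01 on those of Foxp3-cre. The spread within the knockout groups was small beside the steps between groups. Xcl1 fell by 0.78 (SE 0.10, limma adjusted p = 0.0135) in CD4-cre, to 58.3% of wild type, and by 1.16 (SE 0.10, limma adjusted p = 0.00106) in Foxp3-cre, to 44.8%.

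By the size of p among 7436 genes, Il4, Ifng and Xcl1 held ranks 7, 9 and 15 for the CD4-cre comparison and ranks 4, 5 and 6 for Foxp3-cre. In Foxp3-cre these were 3 of the 23 genes that fell by at least 1 log2 unit, which are 0.309% of the tested genes. The ranks and this count likewise describe genes chosen with earlier results known. The 3 falls in Foxp3-cre passed the test in every alternative that tested the gene, with limma adjusted p up to 0.019. The calls in CD4-cre were lost without CD4-cre replicate 2, where the limma adjusted p was 0.0655 for Ifng and Il4 and 0.0878 for Xcl1, and that of Xcl1 also without CD4-cre replicate 1 (0.0831), without CD4-cre replicate 3 (0.0613) and with the 2 groups fitted alone (0.0620).

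Csf2 encodes GM-CSF, a growth factor of granulocytes and macrophages that inflammatory T cells secrete. Csf2 gave log2 signals of 5.37, 5.05 and 5.36 on the wild type arrays, 5.07, 5.14 and 5.11 on those of CD4-cre and 4.85, 4.54 and 4.83 on those of Foxp3-cre. Foxp3-cre lay below both other groups, which overlapped. Csf2 fell by 0.52 (SE 0.11, limma adjusted p = 0.0450) in Foxp3-cre, to 69.9% of wild type, and in CD4-cre its difference was -0.15 (SE 0.11, limma adjusted p = 0.567). The call is at the edge of what could be tested. The Csf2 mean in Foxp3-cre, 4.74, lies below the limit of 4.979 for testing and that of wild type, 5.26, above it, and limma's adjusted p was 0.0630 with no filter. The fall was called in 6 of 18 alternatives, with limma adjusted p from 0.00208 to 0.172.

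**Figure D2:**
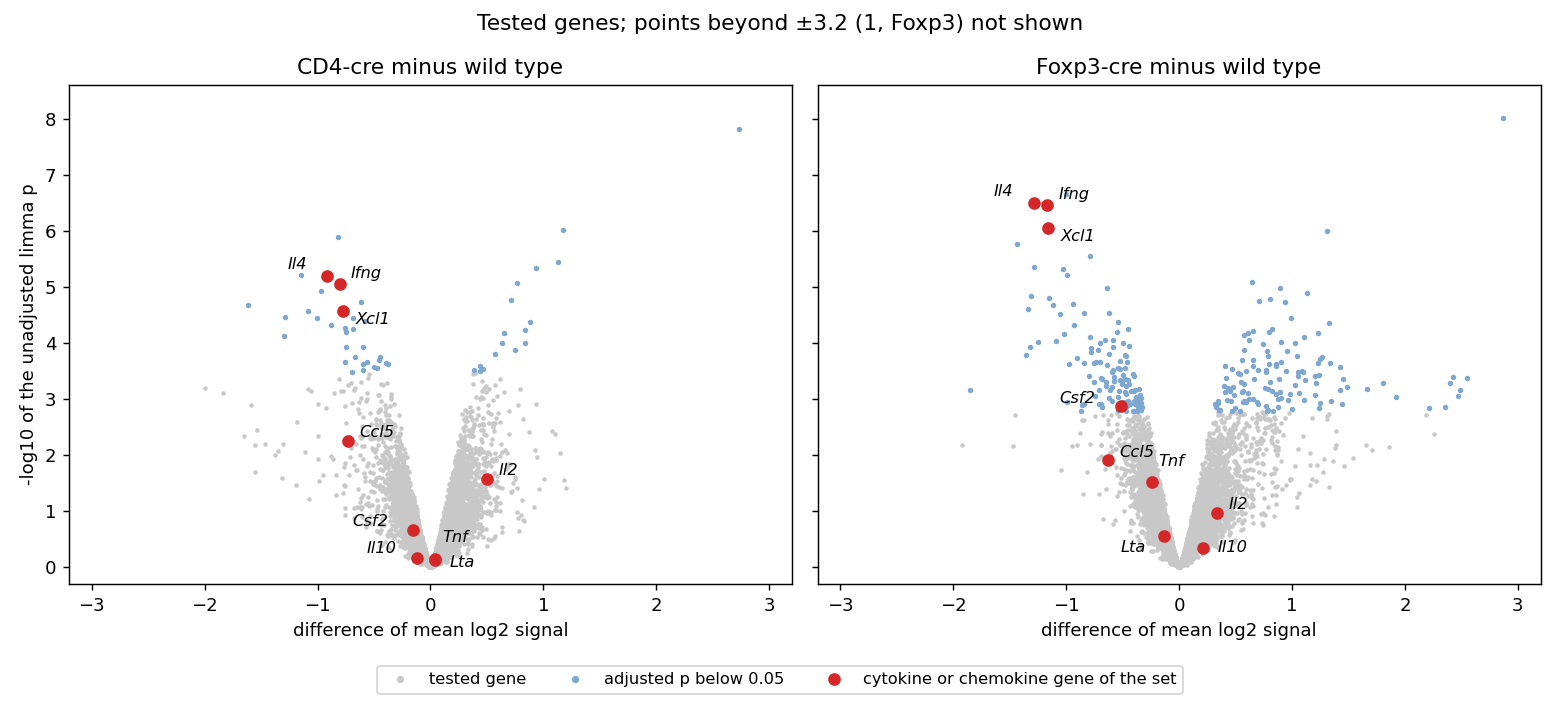
Each point is 1 tested gene, placed by its difference in mean log2 signal from wild type (horizontal axis) and the -log10 of limma's unadjusted p (vertical axis), for CD4-cre on the left and Foxp3-cre on the right, with called genes in blue and the 9 tested cytokine and chemokine genes in red. Il4, Ifng and Xcl1 sit near the top of the falling side in both panels, at ranks 7, 9 and 15 and at 4, 5 and 6, and 1 gene, Foxp3, lies off the scale.

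The promoters of the 4 genes that fell are shown because limma called these genes lower in Foxp3-cre, with the core letters of binding sites for NFAT, the factor that switches on cytokine genes after T cell receptor stimulation, in capitals (GGAAA, or TTTCC where it lies on the other strand). Each is the 250 bases before the annotated start, 5′ to 3′ on the strand of the gene, from RefSeq for build GRCm38.p6. Ifng lies at chr10:118440796-118441045 on the plus strand, and Il4, at the outer of its 2 annotated starts, at chr11:53618666-53618915 on the minus strand. Xcl1 lies at chr1:164935523-164935772 and Csf2 at chr11:54249900-54250149, both on the minus strand.
Ifng: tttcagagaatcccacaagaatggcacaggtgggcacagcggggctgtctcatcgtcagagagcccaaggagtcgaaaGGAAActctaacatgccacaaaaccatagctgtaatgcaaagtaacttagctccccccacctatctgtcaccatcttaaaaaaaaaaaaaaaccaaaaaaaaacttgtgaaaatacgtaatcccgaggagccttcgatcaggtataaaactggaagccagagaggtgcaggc
Il4: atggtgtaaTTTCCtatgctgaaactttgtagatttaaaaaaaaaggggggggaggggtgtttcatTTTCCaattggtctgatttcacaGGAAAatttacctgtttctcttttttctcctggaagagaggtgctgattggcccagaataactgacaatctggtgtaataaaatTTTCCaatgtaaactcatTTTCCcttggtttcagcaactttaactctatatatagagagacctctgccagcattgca
Xcl1: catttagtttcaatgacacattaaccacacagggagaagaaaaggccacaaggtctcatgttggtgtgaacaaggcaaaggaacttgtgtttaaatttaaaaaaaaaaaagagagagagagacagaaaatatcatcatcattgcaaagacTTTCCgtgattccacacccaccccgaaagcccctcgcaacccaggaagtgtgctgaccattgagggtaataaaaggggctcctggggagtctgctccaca
Csf2: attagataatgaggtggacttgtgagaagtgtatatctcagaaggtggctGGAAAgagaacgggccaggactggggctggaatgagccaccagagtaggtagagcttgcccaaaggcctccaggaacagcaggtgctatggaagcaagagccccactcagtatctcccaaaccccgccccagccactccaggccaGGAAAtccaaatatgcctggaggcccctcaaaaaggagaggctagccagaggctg

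Il4 held 5 of these matches, between positions -241 and -55 from the start, Csf2 held 2 and Ifng and Xcl1 held 1 each. Such a match stands in 55.7% of the 32536 distinct promoter windows of that length, on either strand. It was also present in the windows of Il2, Il13, Tnf and Lta, which were not called, so all 8 genes with a window held it. Il10 and Ccl5 had no window in the table. The T-box letters GGTGTGA, read by TBX21, occurred in Xcl1 at positions -188 to -182 and in 3.33% of all windows. GATAA, read by GATA factors, occurred in Csf2 and Il13 (22.5% of all windows), TATAAA in Ifng, Il2, Il13, Tnf and Lta (12.3%), and the AP-1 letters TGANTCA in 0 of the 8 (6.73%). These matches are letters in a window and were not measured as bound sites.

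Ccl5 encodes RANTES, a chemokine for T cells and monocytes that memory T cells and NK cells make in large amounts. The Ccl5 arrays read 11.10, 11.42 and 11.04 on the wild type arrays, 10.36, 10.18 and 10.85 on those of CD4-cre and 10.27, 10.50 and 10.91 on those of Foxp3-cre. Every knockout array lay below every wild type array, but the knockouts spread widely, and the highest CD4-cre and Foxp3-cre arrays came within 0.20 and 0.14 of the lowest wild type array. In CD4-cre Ccl5 differed by -0.73 (SE 0.20, limma adjusted p = 0.162), and in Foxp3-cre by -0.63 (SE 0.20, limma adjusted p = 0.120). Counted by the absence of overlap alone, 4 of the 9 tested genes in CD4-cre, and 5 in Foxp3-cre, lay wholly below wild type, beside 9.16% and 12.2% of all tested genes.

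Tnf and Lta encode tumor necrosis factor and lymphotoxin alpha, inflammatory cytokines that share receptors. Tnf read 7.46, 7.17 and 7.40 on the wild type arrays, 7.36, 7.40 and 7.38 on those of CD4-cre and 7.23, 7.03 and 7.03 on those of Foxp3-cre on the log2 scale. Both knockouts overlapped wild type, CD4-cre with a difference of 0.038 (limma adjusted p = 0.873) and Foxp3-cre with one of -0.24 (SE 0.10, limma adjusted p = 0.186). Leaving out wild type replicate 2, Tnf passed the test in Foxp3-cre, with a difference of -0.33 (limma adjusted p = 0.0378). Lta read 8.16, 8.25 and 7.94 on the wild type arrays, 8.16, 8.20 and 8.11 on those of CD4-cre and 8.20, 7.91 and 7.83 on those of Foxp3-cre. Its groups overlapped throughout, with differences of 0.040 (SE 0.12) and -0.13 (SE 0.12).

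Il2 encodes the T cell growth factor that regulatory T cells consume and scarcely make. For Il2 the log2 signal was 5.84, 4.96 and 5.30 on the wild type arrays, 5.99, 5.85 and 5.75 on those of CD4-cre and 5.84, 5.59 and 5.67 on those of Foxp3-cre. The wild type arrays spread widely, with an SD of 0.44 (n = 3), and overlapped both knockouts. In CD4-cre Il2 differed by 0.50 (SE 0.19, limma adjusted p = 0.290), and in Foxp3-cre by 0.34 (SE 0.19, limma adjusted p = 0.335). With wild type replicate 1 left out, Il2 passed the test in Foxp3-cre with a difference of 0.58 (limma adjusted p = 0.0448), while Csf2 no longer did. With wild type replicate 2 left out, Il2 differed by only 0.30 in CD4-cre and 0.14 in Foxp3-cre (limma adjusted p = 0.305 and 0.613).

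Il10 encodes interleukin 10, the anti-inflammatory cytokine of the set. Il10 read 6.08, 5.29 and 5.93 on the wild type arrays, 5.77, 5.47 and 5.71 on those of CD4-cre and 6.62, 5.63 and 5.69 on those of Foxp3-cre. Its arrays overlapped in all groups, and it was the most variable of the 10 in Foxp3-cre, with an SD of 0.55 (n = 3). In CD4-cre Il10 differed by -0.12 (SE 0.28, 95% interval -0.74 to 0.51), and in Foxp3-cre by 0.22 (SE 0.28, 95% interval -0.41 to 0.84), the widest intervals of the 9 tested genes. With wild type replicate 2 left out, the Il10 differences were -0.35 and -0.022 (limma adjusted p = 0.488 and 0.972).

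Il13 encodes interleukin 13, a T helper 2 cytokine of airway and gut. The log2 signal of Il13 was 4.15, 4.11 and 4.11 on the wild type arrays, 4.38, 4.15 and 4.24 on those of CD4-cre and 4.33, 4.21 and 4.03 on those of Foxp3-cre, between the percentiles 33.3 and 38.2 of all probe sets. Il13 was too dim for the main fit. In the fit with no filter on dim genes it differed by 0.13 in CD4-cre (95% interval -0.090 to 0.35, limma adjusted p = 0.655) and by 0.064 in Foxp3-cre (95% interval -0.16 to 0.29, limma adjusted p = 0.779). Il13 is the gene next to Il4 on chromosome 11, and its other neighbour, Rad50, differed by -0.075 in CD4-cre and 0.017 in Foxp3-cre without passing the test. Kif3a, on the other side of Il4, and P4ha2 and Il3 around Csf2 were too dim. Ltb, which lies beside Tnf on chromosome 17 and encodes lymphotoxin beta, differed by -0.043 in CD4-cre and by -0.28 (SE 0.069, limma adjusted p = 0.0622; 0.0320 without wild type replicate 2) in Foxp3-cre. Nfkbil1, beside Lta, differed by -0.35 and -0.33 (limma adjusted p = 0.267 and 0.180).

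The knockouts were then compared with each other, which tests as well whether the changes from the shared wild type arrays are unequal. The log2 level of Ifng in Foxp3-cre minus that in CD4-cre was -0.36 (SE 0.092, 95% interval -0.57 to -0.16, limma adjusted p = 0.232). For Il4 this difference was -0.37 (95% interval -0.60 to -0.15, limma adjusted p = 0.247), and for Xcl1 it was -0.38 (95% interval -0.61 to -0.15, limma adjusted p = 0.242). Csf2 differed by -0.36 (95% interval -0.62 to -0.11, limma adjusted p = 0.276) and Tnf by -0.28 (95% interval -0.50 to -0.066, limma adjusted p = 0.308). In these 5 genes all Foxp3-cre arrays lay below all CD4-cre arrays, as they did in 18.8% of the tested genes. They were also 5 of the 458 genes, 6.16% of those tested, that were lower at an unadjusted p under 0.05. By limma, 0 of the 9 were called, and of all 7436 genes only Foxp3 was (0.0134%), against 74 genes without wild type replicate 2, when 0 of the 9 were called. The order of the levels for Ifng, Il4 and Xcl1 was thus wild type, CD4-cre and Foxp3-cre from high to low, of which the first step passed the test and the second did not. Ccl5, Il10, Il2 and Lta overlapped between the knockouts, with differences of 0.10, 0.33, -0.16 and -0.17.

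**Figure D3:**
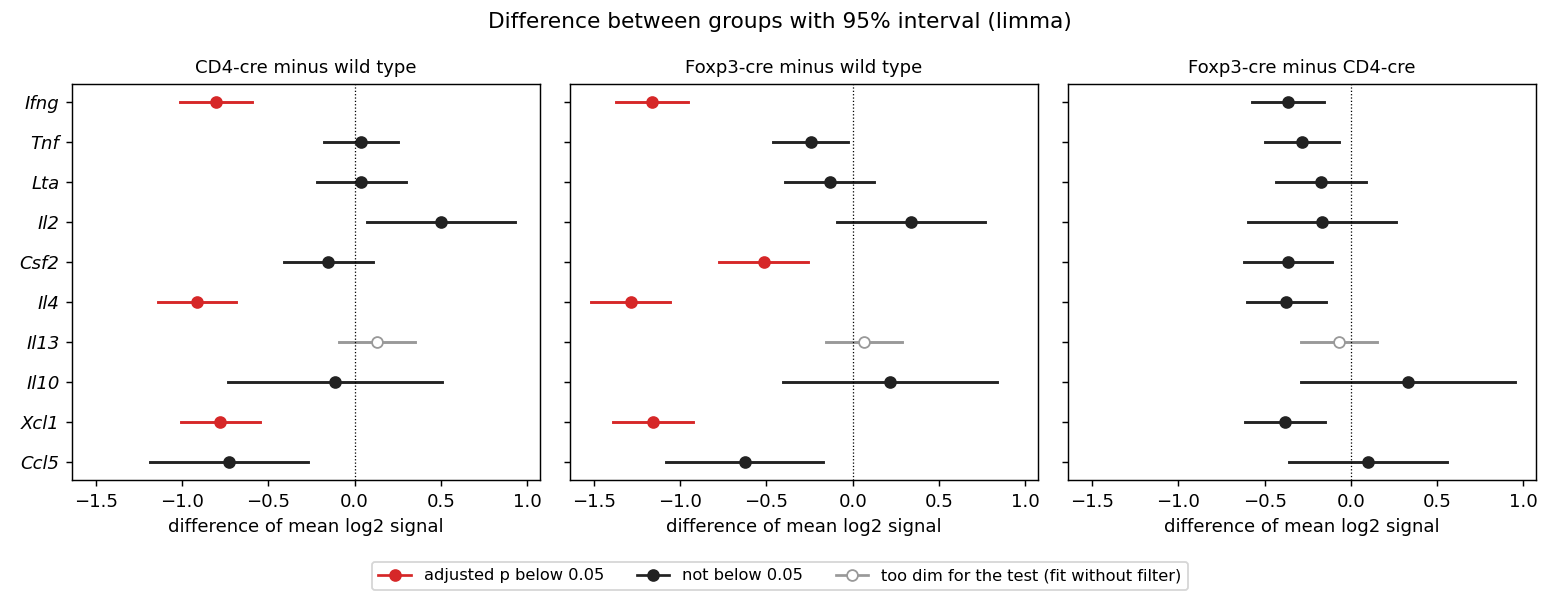
Difference of mean log2 signal between groups (horizontal axis) for each of the 10 genes (vertical axis), with limma's 95% interval, in 3 panels for CD4-cre against wild type, Foxp3-cre against wild type and Foxp3-cre against CD4-cre. In the panel that compares the knockouts the intervals of Ifng, Il4, Xcl1, Csf2 and Tnf lie below 0, between -0.62 and -0.066, and none passed the adjusted test.

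Ifng, Il4 and Xcl1 also had like profiles over the 9 arrays, which share their 3 groups, so that a difference between groups alone raises such a correlation. Pearson's r was 0.98 between Ifng and Xcl1, 0.98 between Il4 and Xcl1 and 0.97 between Ifng and Il4. Beside Xcl1, the tested genes most like Ifng were Tnfrsf9, which encodes the costimulatory receptor 4-1BB (r = 0.97), and Tnfsf14, which encodes the cytokine LIGHT (r = 0.97). The genes most like Il4 were Pink1, which encodes a kinase of damaged mitochondria (r = 0.98), Xcl1 and the interferon-inducible Ifi209 (r = 0.98), and Ifi209 was also among the 3 most like Xcl1 (r = 0.97). Pink1 fell by 0.82 in CD4-cre and 1.01 in Foxp3-cre (limma adjusted p = 0.00327 and 0.00051). It was picked for its likeness to Il4, a called gene, so its p is no separate evidence. The same holds for the other genes picked by likeness. Csf2 was most like Slc3a2, the heavy chain of an amino acid transporter (r = 0.96), Zfp142 and Dapk1 (both r = 0.95), which did not pass the test in either knockout with all arrays. Without wild type replicate 2 these 3 passed in Foxp3-cre (limma adjusted p = 0.0273, 0.0499 and 0.0424).

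Among 14 other T cell cytokines that were tested, limma called 0 in CD4-cre, with 5 at an unadjusted p under 0.05. Such an unadjusted p was reached by 14.1% of all tested genes in CD4-cre, 21.3% in Foxp3-cre and 11.3% between the knockouts, against which the counts of this kind below are to be read. In Foxp3-cre, 2 fell and 2 rose, with a list median of 0.093 beside 0.0061 for all genes. Fasl, which encodes the death ligand of cytotoxic T cells, fell by 1.31 (SE 0.16, limma adjusted p = 0.00631), and Tnfsf14 fell by 0.79 (SE 0.12, limma adjusted p = 0.0141). In CD4-cre their differences were -0.79 and -0.62 (limma adjusted p = 0.0709 and 0.0653). Tnfsf14 fell there without wild type replicate 2 (limma adjusted p = 0.0496) and with the replicate number as a block (0.0387). Penk, which encodes the opioid precursor proenkephalin, rose by 0.80, and Ebi3, which encodes a subunit of the regulatory T cell cytokine IL-35, rose by 0.58 (limma adjusted p = 0.0212 and 0.0290); Ebi3 also rose in CD4-cre without wild type replicate 2 (limma adjusted p = 0.0162). A second probe set of Fasl differed by -0.46 and -0.63 in CD4-cre and Foxp3-cre, and a dimmer one of Tnfsf14 by -0.054 and -0.26.

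Of the other chemokines, 8 were tested, and limma called 0 in CD4-cre (3 at an unadjusted p under 0.05), where Ccl6 and Cxcl10 had the largest differences, of -1.11 and 0.68 (limma adjusted p = 0.194 and 0.197). With the replicate number as a block Ccl6 passed there (limma adjusted p = 0.0376). In Foxp3-cre, Ccl1, a chemokine that attracts CCR8-bearing T cells, rose by 0.77 (SE 0.14, limma adjusted p = 0.0242) and the other 7 did not pass. Ccl3 and Ccl4 passed with the replicate number as a block (limma adjusted p = 0.0248 and 0.0288) and without wild type replicate 2 (0.0225 and 0.0465), as genes that fell. The list median was -0.29 in CD4-cre and -0.36 in Foxp3-cre. Of 13 tested receptors of the 10 proteins, limma called 0 in CD4-cre (1 at an unadjusted p under 0.05). In Foxp3-cre 1 of the 13 was called: Tnfrsf1a, a receptor of TNF and lymphotoxin alpha, fell by 0.55 (SE 0.081, limma adjusted p = 0.0129). Without wild type replicate 2, Il10rb, a subunit of the IL-10 receptor, also fell there (limma adjusted p = 0.0245). Xcr1, the receptor of XCL1, had a mean signal of 2.96 in wild type and 2.97 in Foxp3-cre and was too dim to test.

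Of 34 tested transcription factors of cytokine genes, limma called 0 in CD4-cre (8 at an unadjusted p under 0.05) and 4 fell in Foxp3-cre, with list medians of 0.030 and -0.045. Tbx21, which encodes T-bet, the factor that directs Ifng in T helper 1 cells, fell by 1.16 (SE 0.14, limma adjusted p = 0.00643) in Foxp3-cre, and in CD4-cre its difference was -0.73 (SE 0.14, limma adjusted p = 0.0661; 0.0471 without wild type replicate 2). Zbtb16, which encodes PLZF, the factor of innate-like T cells, fell by 1.36 (limma adjusted p = 0.0191) and Zbtb7b, which sets the CD4 lineage, by 0.38 (limma adjusted p = 0.0387). Other probe sets of these genes moved less, by -0.37 for Zbtb16 and -0.091 for Zbtb7b in Foxp3-cre. The fourth call was the Foxp3 probe set, whose signal fell by 6.44; whether it can read RNA of the Foxp3 cre allele is not known. Without wild type replicate 2, 2 of the 34 fell in CD4-cre and 9 in Foxp3-cre, where Jun, Junb and Fos, subunits of AP-1, were among those added (limma adjusted p = 0.00329, 0.00647 and 0.0115). Over all genes limma called more in that setting too, by the counts given above, so added calls are not particular to this list. With the replicate block Zbtb7b did not pass (limma adjusted p = 0.0539) and Irf4 rose by 0.69 (limma adjusted p = 0.0347). Gata3, the factor that directs Il4 in T helper 2 cells, differed by 0.039 in CD4-cre and -0.066 in Foxp3-cre without passing the test.

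Genes that respond to the cytokines were read as well. Of 20 genes induced by interferon gamma, 0 were called in any of the 3 comparisons, and their median difference was -0.011 in CD4-cre and -0.040 in Foxp3-cre; the largest, of Cxcl10, was 0.68 in both (limma adjusted p = 0.197 and 0.104). At an unadjusted p under 0.05 limma counted 3 of these genes in CD4-cre, 4 in Foxp3-cre and 0 between the knockouts (beside 14.1%, 21.3% and 11.3% of all genes). Without wild type replicate 2, Gbp2, an interferon-induced GTPase, fell in both knockouts, by 0.42 and 0.47 (limma adjusted p = 0.0442 and 0.0209), and Irf1, a transcription factor, fell by 0.36 in Foxp3-cre (limma adjusted p = 0.0317). Of 13 targets of STAT5 and STAT6, which relay IL-2 and IL-4, Tnfrsf9 fell in both knockouts, by 0.45 and 0.54 (limma adjusted p = 0.0382 and 0.0107), and Pim1, a survival kinase, fell by 0.51 in Foxp3-cre (limma adjusted p = 0.0284). Other probe sets of Tnfrsf9 differed by -0.065 and 0.076 in CD4-cre and by -0.23 and -0.14 in Foxp3-cre, and one of Pim1 by -0.15 in Foxp3-cre.

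**Figure D4:**
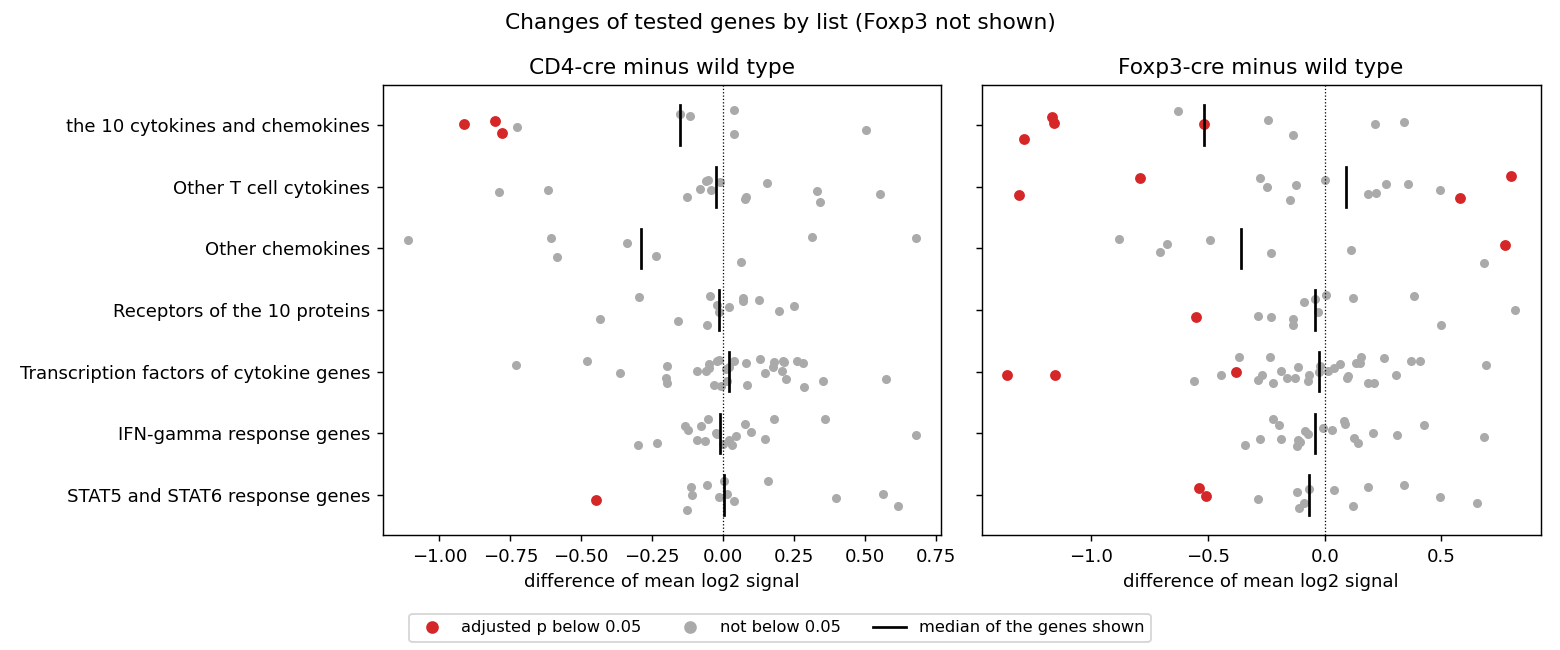
Difference of mean log2 signal from wild type (horizontal axis) of every tested gene of the 10 cytokines and chemokines and of 6 related lists (vertical axis), for CD4-cre on the left and Foxp3-cre on the right, with called genes in red and a bar at the median of the genes shown; Foxp3 is left out. The interferon gamma response genes hold 0 called genes and medians of -0.011 and -0.040, beside -0.15 and -0.52 for the tested cytokine and chemokine genes.

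Several cell types that magnets could let through also make these cytokines, so their markers were read beside the results. The 16 markers of NK cells, innate-like T cells and innate lymphoid cells, which make interferon gamma, IL-4, XCL1 and CCL5, had mean log2 signals of 7.57 to 7.63 on the wild type arrays, 6.74 to 7.30 on those of CD4-cre and 6.55 to 7.13 on those of Foxp3-cre. Of the 15 tested, 14 were lower in CD4-cre with a median of -0.66, 0 called by limma and 11 at an unadjusted p under 0.05 (beside 14.1% of all genes), and 15 were lower in Foxp3-cre with a median of -0.86 and 5 called. These were Cxcr6, a chemokine receptor, which fell by 1.44, Zbtb16, Cd160, an NK cell receptor, which fell by 1.09, Prf1 (perforin), which fell by 0.86, and Nkg7, which fell by 0.58 (limma adjusted p from 0.00158 to 0.0432). Other probe sets gave -1.22 for Cxcr6, -1.02 and -0.78 for Cd160 and, on a dim one, -0.0027 for Prf1 in Foxp3-cre. Without wild type replicate 2, Cxcr6 and Cd160 fell in CD4-cre too (limma adjusted p = 0.0218 and 0.0315), while Prf1 no longer passed in Foxp3-cre (0.0582) and Klrk1 did (0.0496). Klra8 and Klra7, which encode NK cell receptors, had the largest differences in CD4-cre, of -1.55 and -1.38 (limma adjusted p = 0.260 and 0.201). A dimmer probe set of Klra7 differed by 0.21 in CD4-cre and -0.052 in Foxp3-cre. Ncr1, which encodes an NK cell receptor, had mean signals of 5.69, 5.36 and 5.47 in wild type, CD4-cre and Foxp3-cre. Against wild type this list moved the same way as Ifng, Il4, Xcl1 and Ccl5. Between the knockouts its median difference was -0.12, and its array means overlapped. The arrays of Ccl5 overlapped there too, while those of Ifng, Il4 and Xcl1 did not. Those of Cxcr6, Zbtb16 and Cd160, markers of this list, did not overlap either, with Foxp3-cre lower, as in 18.8% of the tested genes. Cxcr6 differed by -0.73 and passed with the replicate block (limma adjusted p = 0.0443) and without wild type replicate 2 (0.0389). Of the 15 tested markers 11 were lower and 4 higher. The main fit called 0, with 2 at an unadjusted p under 0.05 (beside 11.3% of all genes). The part of this list in the results for Ifng, Il4, Xcl1 and Ccl5 was not tested.

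Neutrophil and macrophage markers were higher in Foxp3-cre, in 9 of 10 and 6 of 6 tested, and in CD4-cre 7 and 3 of them were higher and limma called 0 (5 and 0 at an unadjusted p under 0.05). With the replicate block, 2 neutrophil markers rose in CD4-cre and 1, Csf3r, fell by 1.53 (limma adjusted p = 0.0181). Between the knockouts, 10 of 10 and 6 of 6 were higher in Foxp3-cre, with medians of 1.12 and 1.27. The main fit called 0 there, with 8 and 5 at an unadjusted p under 0.05 (beside 11.3% of all genes). The block called 8 and 2, and the fit without wild type replicate 2 called 0. The 10 neutrophil markers had mean signals of 7.78 to 8.75 on the wild type arrays, 8.23 to 9.08 on those of CD4-cre and 9.16 to 10.14 on those of Foxp3-cre, where 6 rose, and the 10 of monocytes and macrophages 5.83 to 6.29, 5.74 to 6.92 and 6.44 to 8.06, where C1qb rose by 2.47 (with the replicate block 8 neutrophil and 4 macrophage markers rose, and without wild type replicate 2 it was 5 and 1); their part in the results was not tested. The C1qb mean was 4.13 in wild type and 4.94 in CD4-cre, below the limit of 4.979 for testing, and 6.60 in Foxp3-cre. It was thus tested only through the group where it is high, which limits its call and its place among the 6 tested. Other probe sets of C1qb moved less in Foxp3-cre, by 0.40 on a similarly bright one and by 1.498 on a dimmer one. In CD4-cre these differed by -0.16 and 0.097. Mast cells and basophils make IL-4 and IL-13. Their 7 markers had mean signals of 4.19 to 4.73, 4.51 to 4.78 and 4.55 to 4.66. Of the 3 tested, limma called 0 (1 in CD4-cre and 3 in Foxp3-cre at an unadjusted p under 0.05). In each knockout 1 of the 3 was lower than wild type and 2 were higher. The 7 markers of B cells and plasma cells had means of 7.81 to 8.29, 8.15 to 8.28 and 7.57 to 8.84. Of the 5 tested, limma called 0 (2 and 3 at an unadjusted p under 0.05). These moved in both directions, with 2 lower than wild type and 3 higher in each knockout. CD8 T cells (2 markers tested) and dendritic cells (2 tested) had 0 called by limma in either knockout, and 0 at an unadjusted p under 0.05.

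**Figure D5:**
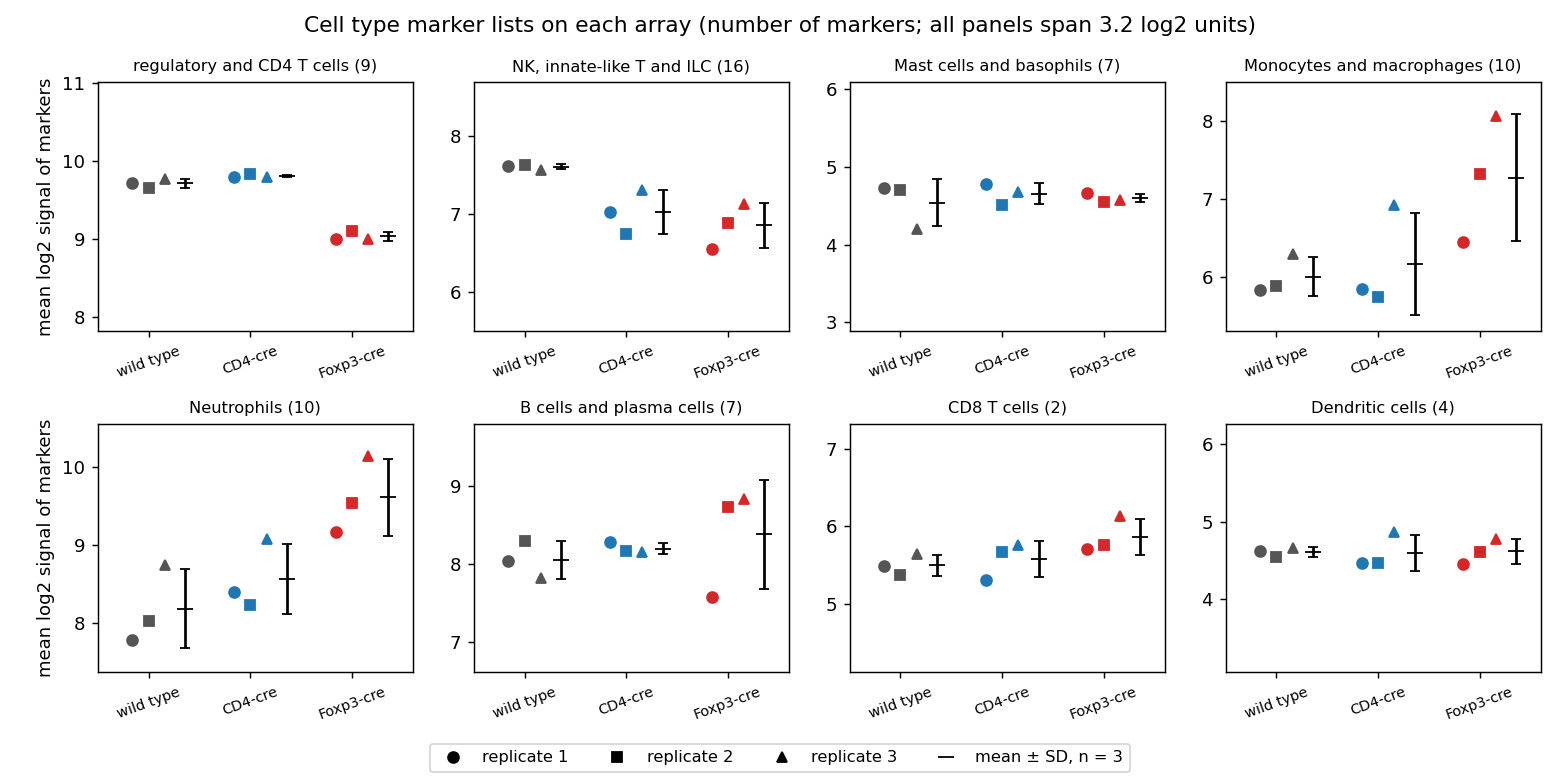
Mean log2 signal of the markers of 8 cell types (vertical axis, every panel spanning 3.2 log2 units, the number of markers in brackets) in the 3 genotype groups, with 1 point per array and the mean with its SD (n = 3). The NK and innate-like panel is lower in both knockouts, at 6.55 to 7.30 against 7.57 to 7.63 in wild type, the neutrophil panel is highest in Foxp3-cre, and the T cell panel is lower in Foxp3-cre through Foxp3 itself.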

How the data were processed

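The deposited values are the authors' log2 signals, 1 per probe set and array, made with RMA per the submitters' processing notes. RMA subtracts background, puts the arrays on 1 distribution and combines a set's probes, so small differences of dim genes are shrunk and a change shared by all genes is lost. RMA version, scanner and genome build: not given in the sources used here. Array medians lay between 5.37 and 5.45, and the number of arrays limits the precision: the median SE of a difference was 0.11.

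Of 22690 probe sets, 64 control probe sets were left out. Each of 12393 genes was represented by its brightest probe set, and genes at or above the 40th percentile of gene means (4.979) were tested. Groups and replicate numbers came from the labels. Deviations from the group means of same-numbered samples correlated above 0.1 in 7 of 9 pairs, against 2 of 18 other pairs. They did so in all 3 pairs of wild type with Foxp3-cre (0.201 to 0.255), which on that sign from the data alone count as paired. The labels name no shared litter or day. The main fit did not use this pairing, so its SEs and p-values for Foxp3-cre against wild type leave it out. The replicate number as a block was fitted as an alternative. All 9 arrays entered 1 limma 3.58.1 fit (R 4.3.3, lmFit and eBayes, 6 residual and 3.37 prior degrees of freedom) with 3 two-sided contrasts. Percentages of wild type are from differences of log2 means. No exact permutation test was run, since with 3 against 3 arrays its smallest p is 0.1. The fit was tested on simulated data.

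The 10 genes and all lists were chosen with earlier results of these data known. The rule for naming took from each list at most 4 called genes, or the 2 largest differences where none passed. It added the 3 genes most correlated with each called gene and the neighbours of Il4, Il13, Csf2, Tnf and Lta in RefSeq's gene order. The text leaves out some of these genes. Among them are the called neutrophil markers and the largest differences of the mast cell, B cell, CD8 T cell and dendritic cell lists. Gata3, Xcr1, Ncr1, Nkg7, Cd3e, Cd4, Ikzf2, Ccl3, Ccl4, Il21 and the other genes named only with the block or without wild type replicate 2 were chosen after their values were seen. Alternatives were leaving out each array, a replicate block, the 2 groups alone, other filters, quantile normalization, median centring and array weights.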

Additional observations from a re-analysis of the deposited data

Results flagged for a closer look

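Foxp3 differed between the knockouts: its log2 signal in Foxp3-cre minus that in CD4-cre was -6.70 (limma adjusted p = 1.48e-07), the 1 call of that contrast, and all 3 Foxp3-cre arrays lay at 2.67 to 3.38 against 9.62 to 9.69 in CD4-cre. The labels do not say how the Foxp3 cre allele is built, so it is not known whether this probe set reads its RNA.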

How the results depend on the processing

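Over all alternatives, 462 differences of the 9 tested genes stayed on their side of the threshold with the same direction, 11 passed it, 18 lost it and 9 changed sign. Leaving out 1 array at a time gave 0 to 3 of the 9 tested genes in CD4-cre (3 with all arrays), 3 to 5 in Foxp3-cre (4) and 0 between the knockouts, and 4 to 182, 75 to 568 and 1 to 74 over all genes (49, 250 and 1). Only the 2 groups compared gave 23, 26 and 55 over all genes, with Xcl1 as 1 call between the knockouts (adjusted p = 0.0475). A filter at the 60th percentile gave 29 genes in CD4-cre and 2 of the tested cytokine genes in Foxp3-cre, since Il4 and Csf2 were filtered out. Between the knockouts, quantile normalization gave 5 genes (3 lower and 2 higher) and median centring 2. In Foxp3-cre, median centring gave 182 falls and 121 rises beside 124 and 126. Array weights, which set wild type replicate 2 to 0.082, gave 1298, 1539 and 812 genes, and 5 of the 9 in CD4-cre (with Ccl5 and Il2 added) and 5 between the knockouts (Ifng, Il4, Xcl1, Csf2 and Tnf). Of the values that changed sign none was called: leaving out 1 array at a time, Il10 in CD4-cre ranged from -0.35 to 0.042 (positive without wild type replicate 1), Tnf from -0.049 (without wild type replicate 2) to 0.096, Lta from -0.049 (without wild type replicate 3) to 0.11, Il10 in Foxp3-cre from -0.10 (without Foxp3-cre replicate 1; -0.022 without wild type replicate 2) to 0.39, and Ccl5 between the knockouts from -0.073 (without Foxp3-cre replicate 3; -0.039 without CD4-cre replicate 2) to 0.29. Array weights gave -0.024 for Tnf in CD4-cre and -0.16 for Il10 in Foxp3-cre. The cause of these shifts was not tested. For CD4-cre against wild type and between the knockouts, where 1 of 3 same-numbered pairs lay below 0.1, the replicate numbers are not taken as pairs; 12 of 18 best matches still shared the number. The replicate block gave 3, 4 and 0 of the 9 genes, the same calls, and 67, 354 and 96 over all genes. Values for listed genes with this block and without wild type replicate 2 were added after seeing the data. Probe sets near the filter limit, such as that of Csf2, and Il13 below it are limited by their low signal.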

Other observations

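Ccl3 and Ccl4, which encode the inflammatory chemokines MIP-1 alpha and MIP-1 beta, lay below wild type in all Foxp3-cre arrays without passing the test. Ccl3 read 7.75, 6.85 and 7.36 on the wild type arrays, 6.89, 6.81 and 7.23 on those of CD4-cre and 6.45, 6.12 and 6.74 on those of Foxp3-cre, a difference of -0.88 in Foxp3-cre (limma adjusted p = 0.0752). Ccl4 read 7.41, 7.09 and 7.12 on the wild type arrays, 6.95, 6.84 and 7.11 on those of CD4-cre and 6.54, 6.21 and 6.85 on those of Foxp3-cre, a difference of -0.68 in Foxp3-cre (limma adjusted p = 0.0532). Il21, which encodes a cytokine of follicular helper T cells and was too dim to test, read 4.46, 4.02 and 4.50 on the wild type arrays, 4.41, 4.74 and 4.90 on those of CD4-cre and 6.15, 4.90 and 5.01 on those of Foxp3-cre.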
